A study of Mus musculus with 9 samples.

Results

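Rgcc, Car4, Cd300lg, Aqp1, Aqp7 and Btnl9 are 6 genes, taken by name from the 18094 in the deposited table, that mark the capillary endothelium of the heart. Their transcripts were counted in endothelial cells taken from fresh mouse hearts with magnetic microbeads. The cells came from 22-week-old BPH/2J mice, 4-week-old BPH/2J mice and 22-week-old BPN/3J mice, with 3 libraries per group and no other treatment or engineered allele in the labels. BPH/2J is an inbred line with high blood pressure and BPN/3J is its normotensive counterpart. High and normal blood pressure were each represented by a single line, so that blood pressure and strain background cannot be told apart. No 4-week BPN/3J group was analysed here. Age within BPH/2J and any change in its blood pressure between 4 and 22 weeks cannot be told apart either. The labels do not say whether the libraries of a group came from separate animals. The p-values therefore reflect only how far these libraries scatter, and that scatter may be technical.

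Capillaries are the vessels across which the heart muscle exchanges water, gases and fuel with blood. Heart muscle burns mainly fatty acids, and its capillary endothelium is known for a high content of proteins that take up and pass on lipids. Aqp1 encodes a water channel of the plasma membrane, and Aqp7 encodes an aquaglyceroporin, which passes glycerol as well as water. Car4 encodes a carbonic anhydrase anchored to the cell surface, where it interconverts carbon dioxide and bicarbonate. Cd300lg encodes an immunoglobulin-domain receptor of capillary endothelium that binds lymphocytes, and Btnl9 encodes a butyrophilin-like surface protein. Rgcc encodes an intracellular regulator of the cell cycle that responds to complement.

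Libraries held 28806840 to 32913813 counts, and the 6 genes had between 3199 and 268329 counts in a library. Values below are read counts scaled to library depth (CPM) with the trimmed mean of M values (TMM), which corrects for differences in library composition. Cdh5, the cadherin of endothelial junctions, reached 3049 ± 202 CPM in 22-week BPH/2J, 3181 ± 94.1 CPM in 4-week BPH/2J and 2405 ± 41.9 CPM in 22-week BPN/3J (SD, n = 3 each). The labelled cell type therefore carried its defining marker in every group. All 21 pan-endothelial markers examined passed the filter on low counts, and their summed level was 20140.0 to 20370.0 CPM in 22-week BPH/2J, 17340.0 to 18910.0 CPM in 4-week BPH/2J and 18690.0 to 19460.0 CPM in 22-week BPN/3J. Within that sum single markers differed: 11 of the 21, Cdh5 among them, were called higher and 4 lower in 22-week BPH/2J against BPN/3J (7 lower without 4-week BPH/2J replicate 1), where 38.0% of all tested genes were called at an adjusted p under 0.05. The scaling and ratios to these markers used further on therefore rest on genes that differ between the lines. In such bulk samples, fewer capillary cells and less RNA per capillary cell cannot be told apart.

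Rgcc and Aqp1 moved together across the 3 groups and Aqp7 did not, so the stretches upstream of their transcription starts are shown side by side. Each is the 250 bases before a start, from RefSeq on build GRCm38.p6, at chr14:79301636-79301885 (minus strand) for Rgcc, chr6:55336049-55336298 (plus strand) for Aqp1 and chr4:41047963-41048212 (minus strand) for the start of Aqp7 with the smaller coordinate. Capitals mark GGGCGG (the GC box bound by Sp factors) and CACCC (the core of motifs bound by Kruppel-like factors), each on either strand.
Rgcc: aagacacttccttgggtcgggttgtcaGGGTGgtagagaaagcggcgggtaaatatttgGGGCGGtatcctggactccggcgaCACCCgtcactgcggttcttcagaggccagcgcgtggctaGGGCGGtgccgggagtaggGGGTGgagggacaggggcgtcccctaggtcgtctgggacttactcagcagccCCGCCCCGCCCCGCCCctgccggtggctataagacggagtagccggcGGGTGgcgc
Aqp1: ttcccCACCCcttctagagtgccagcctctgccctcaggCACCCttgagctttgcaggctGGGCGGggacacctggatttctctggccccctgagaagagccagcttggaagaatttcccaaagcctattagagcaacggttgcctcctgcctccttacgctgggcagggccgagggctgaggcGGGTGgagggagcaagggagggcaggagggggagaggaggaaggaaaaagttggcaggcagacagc
Aqp7: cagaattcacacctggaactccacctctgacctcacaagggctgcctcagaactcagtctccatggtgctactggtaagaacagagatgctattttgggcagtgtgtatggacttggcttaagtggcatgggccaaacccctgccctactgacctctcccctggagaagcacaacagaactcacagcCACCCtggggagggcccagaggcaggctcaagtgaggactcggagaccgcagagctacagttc
The Rgcc window held 5 matches to GGGCGG, of which the 3 nearest the start form a run in which neighbours share a base, and 4 matches to CACCC. The Aqp1 window held 1 and 3 matches, and the Aqp7 window 0 and 1. Other motifs were searched as well and are not marked. Matches to CANNTG (the E-box, N being any base) ran the other way, with 0 in Rgcc, 1 in Aqp1 and 2 in Aqp7. Among all 32851 RefSeq windows of this length, 32.7% held GGGCGG and 52.0% held CACCC, so that both are common. GC content was 66.8% in the Rgcc window, 62.0% in the Aqp1 window and 56.0% in the Aqp7 window, against a median of 52.4%. The window of the other Aqp7 start, not shown, held 0 matches to GGGCGG and 0 to CACCC, with a GC content of 50.8%. RefSeq windows were matched for 5 of the 6 genes, Cd300lg being the one without. The Car4 window, not shown, held 0 matches to GGGCGG and 1 to CACCC, and the Btnl9 window 0 of each. These matches describe the letters and are not evidence of binding. Their part in the levels of these genes was not tested.

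All 6 genes were among the more abundant transcripts per length. On the scale of RPKM (reads scaled for both gene length and library depth), Aqp1 ranked 14th of 15277 tested genes in 22-week BPH/2J, at 1566 RPKM, 27th in 4-week BPH/2J, at 902 RPKM, and 7th in 22-week BPN/3J, at 3145 RPKM. Aqp7 was the least abundant of the 6 in every group, at 82.3 RPKM in 22-week BPH/2J, 50.1 RPKM in 4-week BPH/2J and 49.1 RPKM in 22-week BPN/3J. The order from Aqp1 through Cd300lg, Rgcc, Btnl9 and Car4 to Aqp7 was the same at both ages of BPH/2J. In BPN/3J, Rgcc stood above Cd300lg, at 706 and 489 RPKM. Together the 6 genes took 0.726 ± 0.0761% of all counts in 22-week BPH/2J, 0.422 ± 0.0133% of them in 4-week BPH/2J and 1.115 ± 0.1197% of them in BPN/3J (SD, n = 3 each). Aqp1 alone made up 57.9 ± 1.76% of those counts in 22-week BPH/2J, 55.7 ± 2.75% of them in 4-week BPH/2J and 72.5 ± 2.97% of them in BPN/3J.

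**Figure D1:**
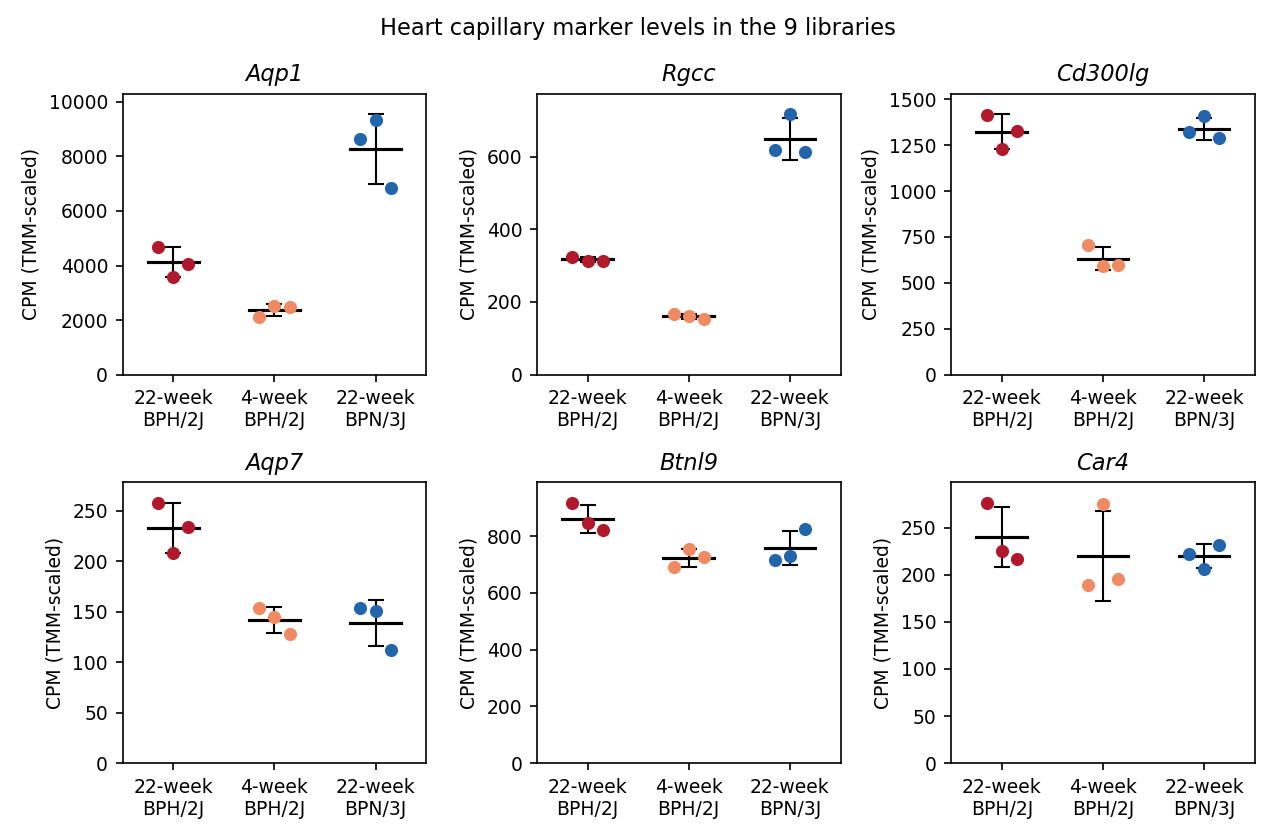
Level of each gene in CPM (TMM-scaled, linear axes from 0) in the 3 libraries of each group, with the mean (long bar) and SD (error bar). Aqp1 and Rgcc are highest in BPN/3J and lowest in 4-week BPH/2J, Cd300lg is low only in 4-week BPH/2J, Aqp7 is high only in 22-week BPH/2J, and the groups overlap for Car4.

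Of the channels, Aqp1 (ENSMUSG00000004655, chromosome 6) had 4691, 3592 and 4060 CPM in the 22-week BPH/2J libraries, 2116, 2514 and 2475 CPM in the 4-week BPH/2J libraries and 8619, 9323 and 6845 CPM in the BPN/3J libraries. The 3 groups did not overlap, and BPN/3J libraries stood highest. Aqp1 was 2.01-fold lower in 22-week BPH/2J than in BPN/3J. The log2 difference was -1.01 ± 0.14 (SE; adjusted p = 0.000399 by the quasi-likelihood test of edgeR with the Benjamini-Hochberg method, as for every adjusted p that follows). Within BPH/2J it was 1.74-fold higher at 22 weeks than at 4 weeks, a log2 difference of 0.80 ± 0.14 (adjusted p = 0.00143). The 4-week BPH/2J level was 3.49-fold below that of 22-week BPN/3J (adjusted p = 4.01e-06), a comparison in which line and age differ together.

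Aqp7 (ENSMUSG00000028427, chromosome 4), the glycerol channel, gave another pattern. Its libraries read 257.3, 207.6 and 233.8 CPM in 22-week BPH/2J, 153.3, 144.5 and 127.6 CPM in 4-week BPH/2J and 153.5, 150.6 and 112.2 CPM in 22-week BPN/3J. The 22-week BPH/2J libraries lay above all 6 others, which overlapped each other. The log2 difference was 0.75 ± 0.12 from BPN/3J at 22 weeks (adjusted p = 0.00109) and 0.72 ± 0.12 from 4-week BPH/2J (adjusted p = 0.00125). Between 4-week BPH/2J and BPN/3J the log2 difference was 0.031, with a 95% confidence interval of -0.24 to 0.31 (adjusted p = 0.85). At 22 weeks the water channel was thus lower and the glycerol channel higher in BPH/2J than in BPN/3J.

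Rgcc (ENSMUSG00000022018, chromosome 14), the intracellular regulator, had 324.9, 312.5 and 313.3 CPM in 22-week BPH/2J, 167.1, 161.5 and 152.4 CPM in 4-week BPH/2J and 616.9, 716.0 and 611.9 CPM in BPN/3J libraries. As for Aqp1, the groups did not overlap and stood in the same order. Rgcc averaged 317 ± 6.97 CPM in 22-week BPH/2J, 160.3 ± 7.40 CPM in 4-week BPH/2J and 648 ± 58.7 CPM in 22-week BPN/3J (SD, n = 3 each). Rgcc was lower in 22-week BPH/2J than in BPN/3J by a log2 difference of -1.03 ± 0.07 (adjusted p = 4.57e-06). It was higher at 22 weeks than at 4 weeks in BPH/2J, by 0.98 ± 0.07 on the log2 scale (adjusted p = 1.52e-05). In 4-week BPH/2J it was 4.04-fold lower than in 22-week BPN/3J (adjusted p = 2.65e-08).

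Among the surface receptors, Cd300lg (ENSMUSG00000017309, chromosome 11) was called between the ages and not between the lines. It had 1416, 1229 and 1327 CPM in 22-week BPH/2J, 704.3, 592.8 and 599.2 CPM in 4-week BPH/2J and 1320.0, 1407 and 1286 CPM in 22-week BPN/3J. Both sets of 22-week libraries overlapped, and the 4-week libraries lay below all of them. Cd300lg was 2.09-fold higher in 22-week than in 4-week BPH/2J, a log2 difference of 1.07 ± 0.09 (adjusted p = 2.32e-05). Between the lines at 22 weeks the log2 difference was -0.015, with a 95% confidence interval of -0.21 to 0.18 (adjusted p = 0.91). In 4-week BPH/2J Cd300lg was lower than in BPN/3J by a log2 difference of -1.08 ± 0.09 (adjusted p = 5.04e-06). With the mean level of cardiomyocyte markers as a covariate that difference was -0.54 and no longer passed the threshold (adjusted p = 0.0934, the highest over all alternatives tried, of which the lowest was 6.42e-33). The summed level of those markers did not overlap between these groups, so that fit cannot cleanly separate the markers from the groups.

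Btnl9 (ENSMUSG00000040283, chromosome 11), the butyrophilin-like receptor, gave smaller differences than Rgcc and Aqp1. It had 917.3, 844.5 and 822.2 CPM in 22-week BPH/2J, 690.7, 753.9 and 725.7 CPM in 4-week BPH/2J and 716.5, 729.2 and 825.7 CPM in BPN/3J libraries. The 2 ages of BPH/2J did not overlap, whereas BPN/3J overlapped both. Btnl9 was 1.19-fold higher in 22-week than in 4-week BPH/2J, a log2 difference of 0.25 ± 0.08 (adjusted p = 0.0267). Its call was lost without 22-week BPH/2J replicate 1 (log2 difference 0.21, adjusted p = 0.102), without 4-week BPH/2J replicate 3 (0.26, adjusted p = 0.0681), with the replicate block (0.25, adjusted p = 0.051), with the cardiomyocyte covariate (0.27, adjusted p = 0.0512) and when libraries were scaled to pan-endothelial markers (0.092, adjusted p = 0.358). Together with the stricter threshold of 0.01 these were the 6 of 22 alternatives that lost it, in a range of adjusted p over alternatives of 0.0062 to 0.358. Per 100 counts of pan-endothelial markers Btnl9 had 4.25 ± 0.225 counts in 22-week BPH/2J, 3.98 ± 0.00226 counts in 4-week BPH/2J and 3.99 ± 0.349 counts in BPN/3J (SD, n = 3 each). Between the lines at 22 weeks the log2 difference was 0.19, with a 95% confidence interval of 0.011 to 0.36 before adjustment over genes, and it was not called (adjusted p = 0.0864). That comparison passed the threshold without 4-week BPH/2J replicate 1 (0.19, adjusted p = 0.0499) or without BPN/3J replicate 3 (0.25, adjusted p = 0.0361), in a range of 0.0272 to 0.659.

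Car4 (ENSMUSG00000000805, chromosome 11), the surface carbonic anhydrase, was not called in any comparison. Its libraries read 276.4, 225.7 and 217.2 CPM in 22-week BPH/2J, 189.6, 274.7 and 195.1 CPM in 4-week BPH/2J and 222.0, 206.2 and 231.6 CPM in BPN/3J, and the groups overlapped. The 95% confidence intervals of the log2 differences were -0.18 to 0.43 for 22-week BPH/2J against BPN/3J, -0.18 to 0.43 for 22-week against 4-week BPH/2J, and -0.31 to 0.31 for 4-week BPH/2J against BPN/3J. Each interval excludes the 2-fold differences seen for Rgcc. Replicate 2 of 4-week BPH/2J stood above the other libraries of its group, and without it the age difference was 0.32 and passed the threshold (adjusted p = 0.0423, in a range over alternatives of 0.0423 to 0.94).

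**Figure D2:**
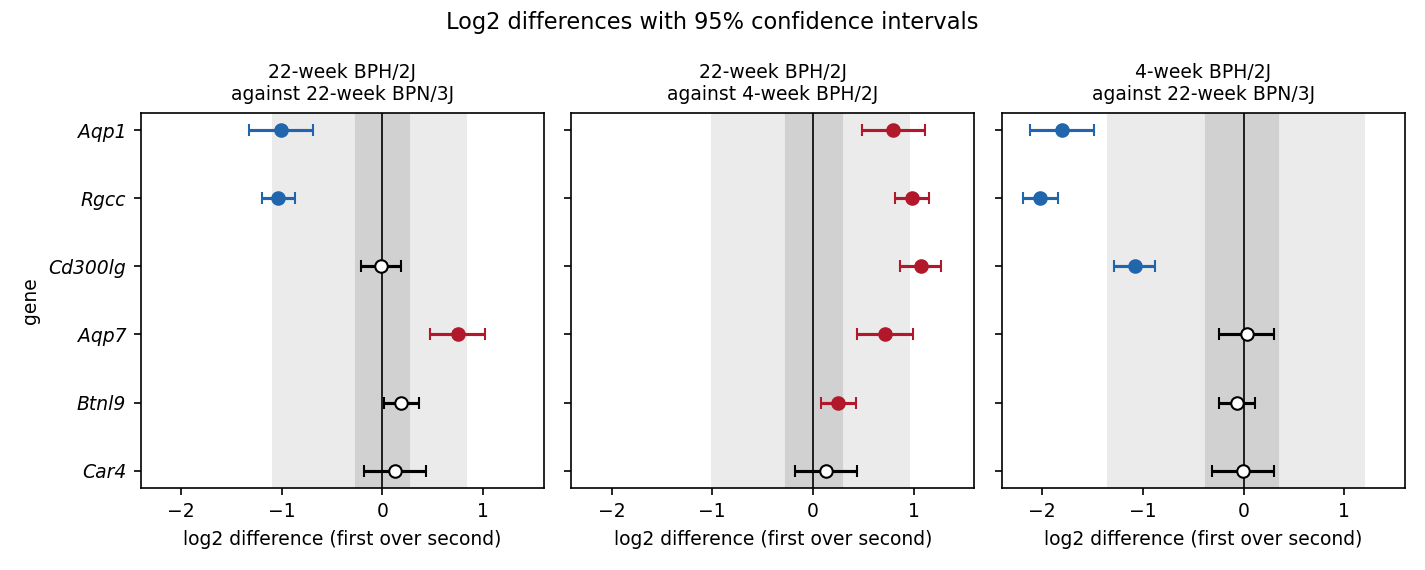
Log2 difference of each gene in the 3 comparisons (first group over second), with its 95% confidence interval. Filled points passed the adjusted p threshold of 0.05 (red higher, blue lower), open points did not, and the dark and light bands hold the middle 50% and 90% of all tested genes. Rgcc and Aqp1 lie at about -1 between the lines and between 0.80 and 0.98 between the ages, while Car4 crosses 0 in all 3 panels.

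Taken over the panel, the lines at 22 weeks differed gene by gene and not in a single direction. In 22-week BPH/2J against BPN/3J, 1 of the 6 genes was higher (Aqp7), 2 were lower (Rgcc and Aqp1) and 3 were not called, while 38.0% of all tested genes were called (19.8% higher and 18.2% lower). The groups did not overlap for 3 of the 6, against 55.7% of all tested genes. The median log2 difference of the panel was 0.05, beside 0.02 over all genes. Of 10 other genes of heart capillaries, 2 were higher in BPH/2J, 3 lower and 5 not called, with a median of -0.01. Fabp5, a cytosolic fatty acid carrier, averaged 395 ± 50.9 CPM in BPH/2J libraries, against 155 ± 15.4 CPM in BPN/3J libraries, a log2 difference of 1.35 ± 0.10 (adjusted p = 5.57e-06). Kdr, the main receptor for vascular endothelial growth factor, was 0.61 ± 0.10 higher on the log2 scale (adjusted p = 0.000897). Lower in BPH/2J were Kcna5, a voltage-gated potassium channel, with a log2 difference of -1.02 ± 0.18 (adjusted p = 0.00176), and Slc28a2, a nucleoside transporter, with -0.59 ± 0.08 (adjusted p = 0.000446). Gpihbp1, which carries lipoprotein lipase to the capillary lumen, was also lower, at 796 ± 30.1 CPM in 22-week BPH/2J against 1107 ± 139 CPM in the BPN/3J libraries (log2 difference -0.48 ± 0.09, adjusted p = 0.00265). With the cardiomyocyte covariate Kdr had a log2 difference of 0.37 (adjusted p = 0.221) and Gpihbp1 one of -0.40 (adjusted p = 0.201), each the highest adjusted p over the alternatives for that gene, whose lowest were 3.08e-09 and 3.55e-06. The summed cardiomyocyte markers did not overlap between the lines, so that fit cannot cleanly separate those markers from the line.

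With age the panel moved mostly one way. In 22-week against 4-week BPH/2J, 5 of the 6 genes were higher and 0 lower, while 41.0% of all tested genes were called (19.9% higher and 21.1% lower). The same 5 had no overlap between groups, against 51.2% of all tested genes, and the panel's median log2 difference was 0.76, beside 0.01 over all genes. That count was 4 without 22-week BPH/2J replicate 1 or 4-week replicate 3, where Btnl9 lost its call, and 6 without 4-week replicate 2, where Car4 gained one. Lists of pan-endothelial, arterial and endocardial markers also had more higher than lower calls. Of 21 pan-endothelial markers 8 were higher and 2 lower, with a median of 0.14 (5 and 6 when libraries were scaled to these markers). Their summed levels, given above, did not overlap between the ages. Of 12 arterial markers 8 were higher and 0 lower, with a median of 0.32, although 4 were higher without 22-week BPH/2J replicate 3 or 4-week replicate 2, 5 without 4-week replicate 3 and 3 with pan-endothelial scaling. Of 7 endocardial markers 3 were higher and 1 lower, with a median of 0.71. The median was 0.05 for 8 venous and 0.02 for 6 lymphatic markers. Whether the panel differs from these lists was not tested. Of the 10 other capillary genes, 6 were higher at 22 weeks, 1 was lower and 3 were not called, with a median of 0.25. Among the higher ones, Gpihbp1 (adjusted p = 0.0299) kept its call in 15 of 22 alternatives and Meox2 (adjusted p = 0.0414) in 12. Both lost it at a threshold of 0.01 and without 22-week BPH/2J replicate 1 or 3 or 4-week replicate 3, among others. Cd36, the fatty acid translocase, was at 6949 ± 562 CPM at 22 weeks and 4130.0 ± 128 CPM at 4 weeks, a log2 difference of 0.75 ± 0.09 (adjusted p = 0.000183). Tcf15, a transcription factor that drives fatty acid uptake genes in heart endothelium, was higher by 0.79 ± 0.15 (adjusted p = 0.00252), and the metalloproteinase inhibitor Timp4 by 0.80 ± 0.19 (adjusted p = 0.0066). Fabp5 was the 1 gene called lower, at 395 ± 50.9 CPM at 22 weeks and 626 ± 6.70 CPM at 4 weeks (log2 difference -0.66 ± 0.10, adjusted p = 0.000523). Kcna5 was also lower in level, at 180 ± 30.4 CPM at 22 weeks and 246 ± 69.3 CPM at 4 weeks, and was not called (log2 difference -0.45 ± 0.18, adjusted p = 0.0739). It passed the threshold with DESeq2 (adjusted p = 0.0421), with the replicate block (0.043) with pan-endothelial scaling (0.0124) and without 22-week BPH/2J replicate 2 or 4-week replicate 1, in a range over alternatives of 0.00113 to 0.839. Fabp4, the other abundant fatty acid carrier, was higher by 0.43 ± 0.11 (adjusted p = 0.00986). Scaling to pan-endothelial markers moved the median of all genes by -0.16 in this comparison, and Fabp4 then had 0.27 (adjusted p = 0.0723, in a range over alternatives of 5.14e-05 to 0.0723). Under that scaling 3 of the 10 other capillary genes were higher and 2 lower.

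The comparison of 4-week BPH/2J with 22-week BPN/3J, in which line and age differ together, held the largest differences of the panel, those of Rgcc and Aqp1. Of the 6 genes, 0 were higher and 3 lower (Rgcc, Aqp1 and Cd300lg), while 53.1% of all tested genes were called (27.8% higher and 25.3% lower). The same 3 had no overlap, against 59.2% of all tested genes, and the panel's median log2 difference was -0.57, beside 0.0 over all genes. Among the 10 other capillary genes, 2 were higher in 4-week BPH/2J and 8 lower, with a median of -0.51. The 2 higher genes were Fabp5, by 2.01 ± 0.10 on the log2 scale (adjusted p = 2.63e-07), and Kdr, by 0.63 ± 0.10 (adjusted p = 0.000369; 0.30 and adjusted p = 0.474 with the cardiomyocyte covariate, in a range of 4.43e-10 to 0.474). Timp4 was among the lower ones, at 254 ± 84.8 CPM in 4-week BPH/2J against 560.5 ± 40.1 CPM in the BPN/3J libraries (adjusted p = 0.000493), as was Slc28a2, at 374 ± 45.5 CPM in 4-week BPH/2J against 642.5 ± 16.9 CPM in the BPN/3J libraries (adjusted p = 3.05e-05). The count of lower genes was 5 without BPN/3J replicate 2 and 3 with the cardiomyocyte covariate. All 3 comparisons share libraries, so their values are side by side and are not independent.

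**Figure D3:**
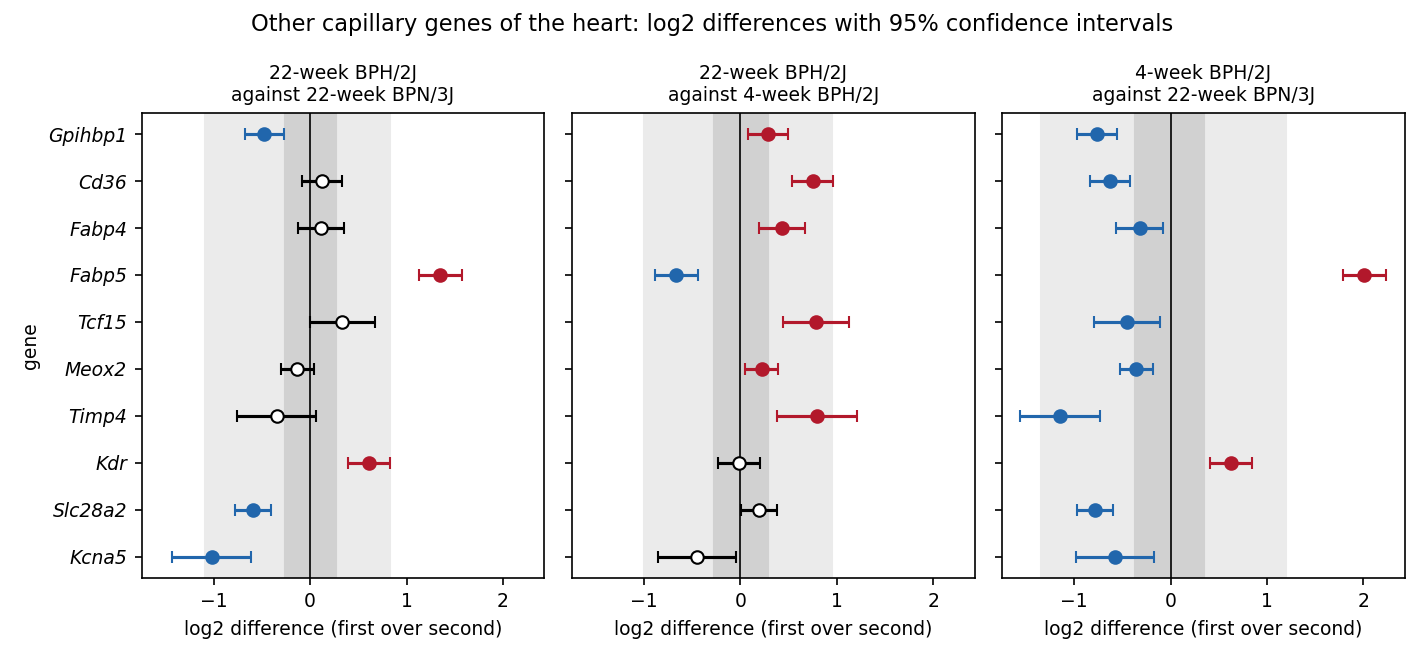
Log2 difference (first group over second) of the 10 other heart capillary genes in the 3 comparisons, with 95% confidence intervals, colours and bands as in the plot of the 6 genes. Fabp5 is higher in BPH/2J of both ages than in 22-week BPN/3J and lower in 22-week than in 4-week BPH/2J.

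Ratios between genes within a library need no scaling between libraries, and are given as a description, since they were chosen after their values were seen. Aqp1 had 12.96 ± 1.47 counts per Rgcc count in 22-week BPH/2J, 14.8 ± 1.90 in 4-week BPH/2J and 12.7 ± 1.41 in BPN/3J (SD, n = 3 each). The 3 groups overlapped, so Aqp1 and Rgcc kept nearly the same proportion although 4-week BPH/2J lay 3.49-fold below BPN/3J in fitted Aqp1 level and 4.04-fold below it in fitted Rgcc level. Aqp1 had 18.2, 17.3 and 17.4 counts per Aqp7 count in the 22-week BPH/2J libraries, 13.8, 17.4 and 19.4 in the 4-week BPH/2J libraries and 56.2, 61.9 and 61.0 in BPN/3J. The ratio of water channel to glycerol channel thus overlapped between the ages of BPH/2J and was higher in all 3 BPN/3J libraries. Against Car4, which was not called in any comparison, Aqp1 had 17.2 ± 1.40 counts per count in 22-week BPH/2J, 11.0 ± 1.78 in 4-week BPH/2J and 37.9 ± 7.87 in BPN/3J, with no overlap between groups.

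**Figure D4:**
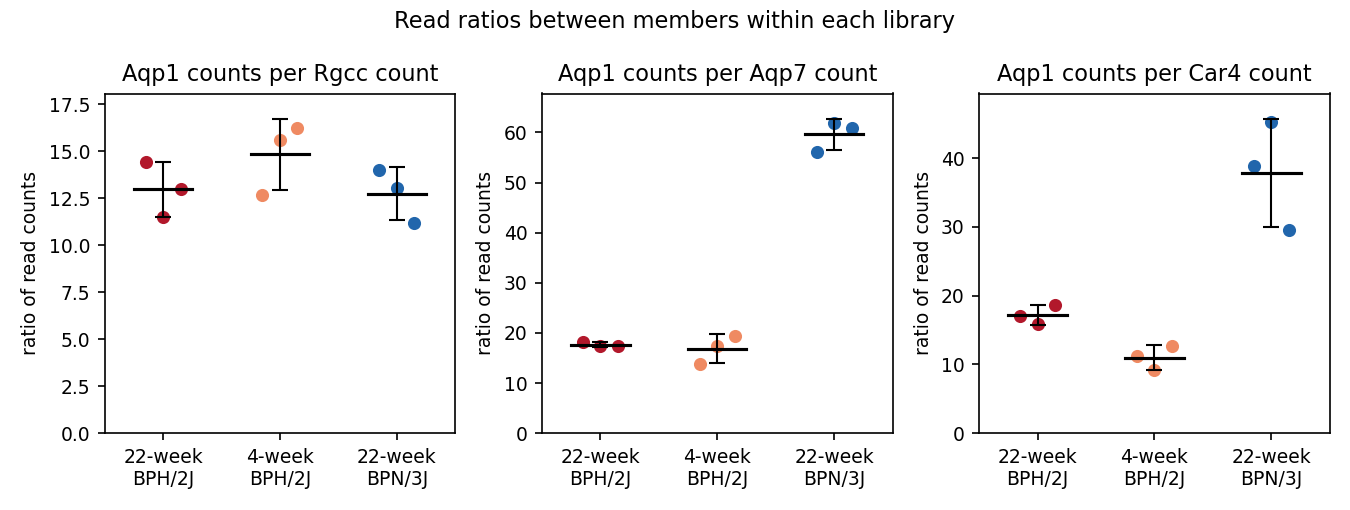
Counts of Aqp1 per count of Rgcc, Aqp7 and Car4 within each library, with the group mean (long bar) and SD (error bar), on linear axes from 0. The Rgcc ratio overlaps in all groups, the Aqp7 ratio sets BPN/3J (56.2 to 61.9) apart from both ages of BPH/2J (13.8 to 19.4), and the Car4 ratio separates all 3 groups.

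The genes of fatty acid uptake and glycerol handling that surround Aqp7 differed in both directions. Of 17 such genes tested, 2 were higher and 5 lower in 22-week BPH/2J against BPN/3J, 8 higher and 3 lower in 22-week against 4-week BPH/2J, and 4 higher and 10 lower in 4-week BPH/2J against BPN/3J. The 7 of 17 called between the lines are near the 38.0% called over all genes, and the shares over all genes in the other comparisons were 41.0% and 53.1%. With the cardiomyocyte covariate 1 was higher and 4 lower in 4-week BPH/2J against BPN/3J, and with pan-endothelial scaling 5 were higher between the ages. Their median log2 differences were -0.13, 0.33 and -0.44 in that order. Lpl, the lipoprotein lipase that capillaries display and that heart muscle cells also make, was at 2128 ± 211 CPM in 22-week BPH/2J, 1322 ± 327 CPM in 4-week BPH/2J and 4857 ± 183 CPM in BPN/3J libraries. That is a log2 difference of -1.19 ± 0.16 between the lines (adjusted p = 0.000301) and 0.69 ± 0.16 between the ages (adjusted p = 0.00632). Pnpla2 and Lipe, lipases that release fatty acids and glycerol from stored fat, stood in the same order of groups. Pnpla2 was at 179 ± 11.1 CPM in 22-week BPH/2J, 114 ± 1.73 CPM in 4-week BPH/2J and 268 ± 14.8 CPM in BPN/3J libraries, and was called in all 3 comparisons (adjusted p = 7.29e-05 between the lines and 4.55e-05 between the ages). Lipe was at 197 ± 2.73 CPM in 22-week BPH/2J, 141 ± 12.5 CPM in 4-week BPH/2J and 256 ± 20.6 CPM in 22-week BPN/3J, and was called in all 3 as well (adjusted p = 0.00377 between the lines and 0.000842 between the ages). Other members of the list went the other way. Slc27a3 was called higher in 22-week BPH/2J (10.35, 8.624 and 12.34 CPM) than in BPN/3J (3.139, 4.343 and 5.263 CPM). Slc27a4 was called lower in 22-week BPH/2J (23.71, 26.23 and 24.78 CPM) than in 4-week BPH/2J (32.53, 38.09 and 38.83 CPM). Fabp5, given above, is also on this list.

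Most close relatives of the 6 genes had few reads. Of the aquaporins, 4 passed the filter on low counts, and besides Aqp1 and Aqp7 the one with more reads was Aqp11, a channel of internal membranes. Aqp11 was at 4.57 ± 0.588 CPM in 22-week BPH/2J, 2.02 ± 0.362 CPM in 4-week BPH/2J and 2.20 ± 0.246 CPM in BPN/3J libraries, so that 22-week BPH/2J stood highest, as for Aqp7. It was called between the lines (log2 difference 1.06 ± 0.18, adjusted p = 0.00128; 1.21 and adjusted p = 0.0797 with the cardiomyocyte covariate, in a range of 6.1e-06 to 0.0797) and between the ages (1.18 ± 0.18, adjusted p = 0.000624). Of the 10 carbonic anhydrases tested, Car4 had the most reads, followed by Car8, a family member without catalytic activity, and the cytosolic Car7. Car8 was at 178 ± 25.3 CPM in 22-week BPH/2J, 75.02 ± 14.2 CPM in 4-week BPH/2J and 155 ± 23.3 CPM in BPN/3J libraries, and was higher at 22 than at 4 weeks (log2 difference 1.25 ± 0.15, adjusted p = 0.000163). Car7 was higher in 22-week BPH/2J than in BPN/3J (0.53 ± 0.13, adjusted p = 0.00922) and than at 4 weeks (0.85 ± 0.13, adjusted p = 0.000609). The 6 other CD300 genes tested and an untested relative summed to 10.0 ± 0.828 CPM in 22-week BPH/2J, 15.8 ± 4.95 CPM in 4-week BPH/2J and 18.1 ± 3.54 CPM in BPN/3J libraries. Btnl9 was the only butyrophilin gene that passed the filter.

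Genes whose levels ran most like each of the 6 were sought by Pearson's r of log2 CPM over the 9 libraries. Candidates were 10158 tested genes that averaged 5 CPM or more. Genes with symbols of predicted, clone, pseudogene or related-sequence type were left out. The libraries fall into 3 groups, so r follows mostly the group means, and it is given with no test. For Rgcc the closest were Ceacam2 (r = 0.997), Agtrap (0.995) and Pnpla2 (0.993). For Aqp1 they were Plekhb2 (0.995), Zfp110 (0.991) and Cdkn1b (0.984). For Cd300lg they were Cbx7 (0.998), Selenbp1 (0.997) and Akap7 (0.997). Cbx7, a Polycomb protein, was at 110 ± 10.7 CPM in 22-week BPH/2J, 29.6 ± 5.37 CPM in 4-week BPH/2J and 111 ± 2.42 CPM in BPN/3J libraries. For Aqp7 they were Anp32a (0.987), Klhl6 (0.985) and Rab12 (0.973), and for Btnl9 Trappc11 (0.949), Zfp653 (0.947) and Sgsm1 (0.947). Car4 had no close match, its nearest being Pkd2l2 (0.87), Gpatch8 (0.816) and Ptcd1 (0.806).

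Markers of other cells moved with some of these differences. Of 16 cardiomyocyte markers tested, 12 were lower and 0 higher in 22-week BPH/2J against BPN/3J, the direction of Rgcc and Aqp1, where 18.2% of all tested genes were lower and 19.8% higher. In 4-week BPH/2J against BPN/3J 14 were lower and 0 higher, against 25.3% and 27.8% of all tested genes. Between the ages 3 were higher and 0 lower (7 higher without 4-week BPH/2J replicate 1, 0 with pan-endothelial scaling), against 19.9% and 21.1% of all tested genes. Their summed level was 582.5 to 703 CPM in 22-week BPH/2J, 438 to 706 CPM in 4-week BPH/2J and 1021 to 1241 CPM in BPN/3J libraries, and none was at 0 in a library. With their mean level as a covariate the line difference of Rgcc was -0.86 (adjusted p = 0.00587) and that of Aqp1 -1.18 (adjusted p = 0.0287), both still called and each the highest adjusted p over that gene's alternatives. The summed level in BPN/3J did not overlap that of either BPH/2J group. A fit with this covariate therefore cannot cleanly separate the marker level from the line, and no conclusion on these cells is drawn from it. Red blood cells also carry Aqp1, and 4 of 5 of their markers tested were lower in 22-week BPH/2J than in BPN/3J. That count was 1 without 22-week BPH/2J replicate 1 or BPN/3J replicate 3, and 2 without BPN/3J replicate 2. The red cell markers summed to 103 to 136 CPM in 22-week BPH/2J, 74.8 to 147.5 CPM in 4-week BPH/2J and 158 to 200.5 CPM in BPN/3J libraries, with only Slc4a1 at 0 in some library. Their part in the Aqp1 difference was not tested. Adipocytes are known for Aqp7, and of their 8 markers 3 were among the deposited genes, whose smallest total over the 9 libraries was 10 counts. The 3 markers summed to 2.42 to 5.19 CPM in 22-week BPH/2J, 2.03 to 2.32 CPM in 4-week BPH/2J and 4.52 to 6.91 CPM in BPN/3J libraries, nearly all from Plin4, with Cfd and Adig at 0 in some libraries. Of 15 macrophage and leukocyte markers, 10 were lower in 22-week BPH/2J than in BPN/3J and 13 lower than in 4-week BPH/2J, where 21.1% of all tested genes were lower. Their sum was 299 to 353 CPM in 22-week BPH/2J, 512 to 948.5 CPM in 4-week BPH/2J and 471 to 779 CPM in BPN/3J libraries. Mitochondrial transcripts took 1.45% to 1.91% of counts in 22-week BPH/2J, 1.19% to 2.63% in 4-week BPH/2J and 2.02% to 2.78% in BPN/3J. The part of these cells and of RNA quality in the other differences was not tested.

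**Figure D5:**
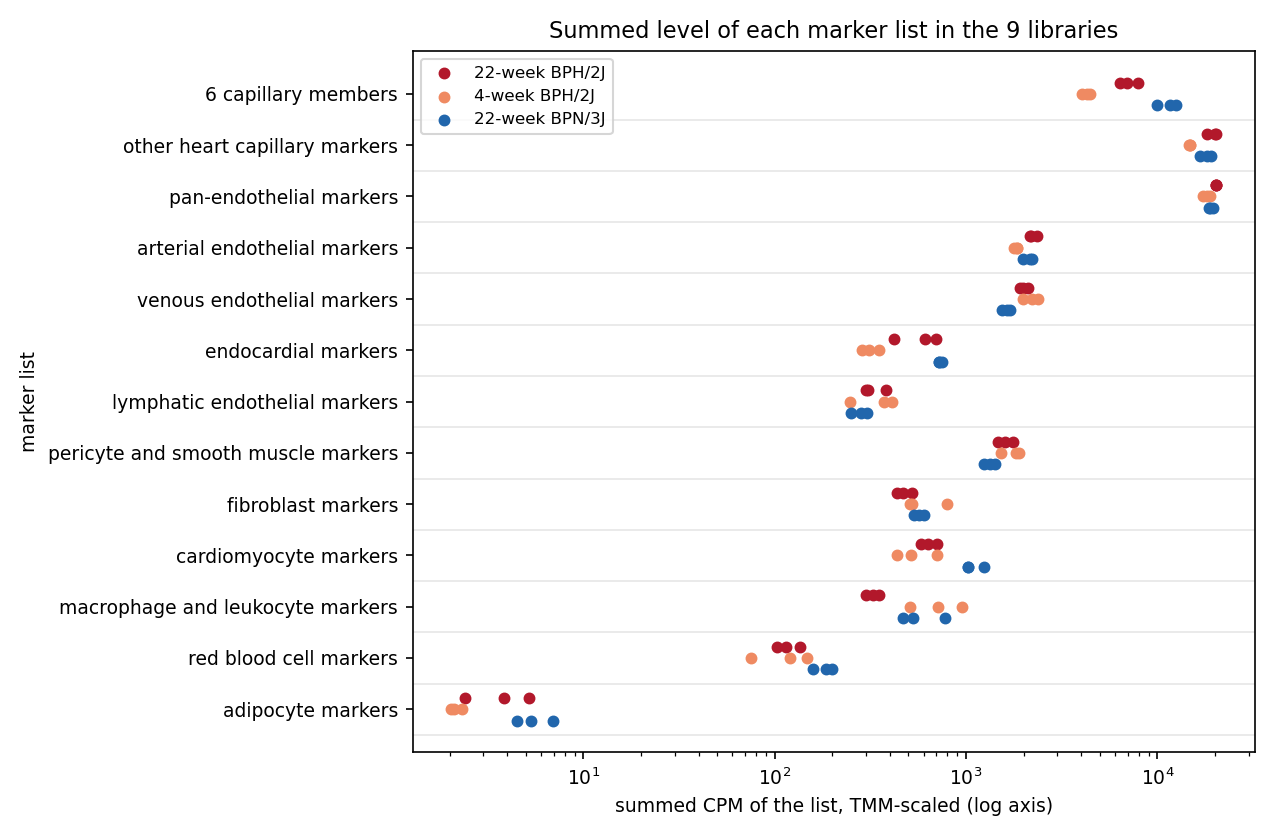
Summed level of each marker list in each library, in CPM (TMM-scaled) on a log axis, with 1 point per library. The sums of the 6 capillary genes, mostly Aqp1, and of the cardiomyocyte and red cell markers are highest in BPN/3J. Without Aqp1 the capillary sum averages 2975 ± 193.5 CPM in 22-week BPH/2J, 1877 ± 68.0 CPM in 4-week BPH/2J and 3102 ± 95.01 CPM in BPN/3J (SD). Macrophage markers are lowest in 22-week BPH/2J, and the pan-endothelial sum stays between 17340.0 and 20370.0 CPM in all libraries.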

How the data were processed

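Endothelial cells of mouse hearts were sequenced as 9 polyA libraries with 100-cycle single reads, per the labels' protocols. The submitters' processing notes list build mm9, TopHat2 2.0.13, Bowtie2, CASAVA 1.8.2, FastQC, edgeR and featureCounts, without roles, order or settings. Not given in the sources used here: strandedness, annotation release. Of values, the authors deposited raw read counts per gene; the deposited CPM values equal each count over its library total, to within 0.0005. The deposited log2 fold changes and p-values (as false discovery rates) are the authors' own and were not used for any result. Deposited gene lengths gave RPKM.

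Genes were kept by filterByExpr (15277 of 18094), libraries were scaled by TMM, and all 9 entered a quasi-likelihood fit in edgeR 4.0.16 with two-sided F tests. Benjamini-Hochberg adjustment covered every tested gene, with calls at an adjusted p under 0.05. Standard errors are the absolute log2 difference over the square root of F, and give the 95% confidence intervals. The limit for a count of 0 is 3 counts, or 0.0911 to 0.104 CPM, for counting error only, since reads carry no molecular identifiers. Scripts were tested on simulated data.

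The 6 genes and all gene lists were chosen with earlier results of these data known. Most genes named besides the 6 come from the 3 most abundant and the most strongly called members of each list. Not all members so picked are named. The 3 candidate genes most like each of the 6 are all named. Timp4, Lipe and Meox2 were chosen after their values were seen. In GENCODE M21, 0 genes overlapped the 6, and 0 others shared 100 identical transcript bases with them. Promoter windows are on GRCm38.p6, a later build than mm9. Equal replicate numbers were not treated as pairs in the main fit, since residuals gave no sign of pairing by number. Alternatives were DESeq2 1.42.0, limma-voom 3.58.1, other scalings and filters, an adjusted p of 0.01, fits on only the groups compared, a replicate block, a cardiomyocyte covariate, and leaving out each library. Software was R 4.3.3, Python 3.11.15 and matplotlib 3.10.9.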

Additional observations from a re-analysis of the deposited data

How the results depend on the processing

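Over 22 alternatives for each of the 6 genes in each of 3 comparisons, 385 values kept their direction and side of the threshold or stayed uncalled, 7 lost a call and 4 gained one. The 11 that changed were those of Btnl9 and Car4, and of Cd300lg in 4-week BPH/2J against BPN/3J with the cardiomyocyte covariate (log2 difference -0.54); the cause was not tested. The number of the 6 genes called higher in 22-week BPH/2J against BPN/3J was 2 with library totals as the only scaling, and 1 to 2 with a library left out. With a library left out, 4 to 6 of the genes were called higher in 22-week against 4-week BPH/2J, and 3 were called lower in 4-week BPH/2J against BPN/3J. Over all genes, the calls in 22-week BPH/2J against BPN/3J numbered 5810, or 3432 at an adjusted p of 0.01, 3307 with the cardiomyocyte covariate and 4362 to 7117 with a library left out. In 22-week against 4-week BPH/2J they numbered 6257, or 3871 at 0.01 and 4606 to 7383 with a library left out. In 4-week BPH/2J against BPN/3J they numbered 8115, or 2057 with the covariate and 6968 to 8682 with a library left out. Scaling to pan-endothelial markers moved the median log2 difference of all genes by -0.16 between the ages, with Btnl9 at 0.092 and Cd300lg at 0.90.

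Libraries with equal replicate numbers did not deviate together: residual correlations of the 9 such pairs ran from -0.16 to 0.077, and 2 of 18 best partners carried the same number. The residuals thus gave no sign of pairing by number, which does not show how the libraries were handled. With the replicate number as a block 5261, 5758 and 7723 genes were called in the 3 comparisons in the order above, and Btnl9 between the ages had 0.25 (adjusted p = 0.051). As for depth, each of the 6 genes had at least 3199 counts per library.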
